A study of Mus musculus with 4 samples.

Results

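The 9 genes described here carry amino acids into the cell or make serine and asparagine inside it. They were taken by name from a list written for this work, 5 transporter genes (*Slc7a5*, *Slc3a2*, *Slc1a5*, *Slc7a11* and *Slc38a2*), 3 enzymes of serine synthesis (*Phgdh*, *Psat1* and *Psph*) and asparagine synthetase (*Asns*), out of 46095 gene symbols in the table of read counts. Bulk RNA from mouse stomach was sequenced in 2 WT and 2 *Atp4b-cre;MycOE* samples, the latter called MYC-KI in the sample titles, all from C57BL/6 mice 12 weeks old. The transgenic mice carry a human *c-Myc* transgene that is switched on in the parietal cell lineage by Cre recombinase under the *Atp4b* promoter, and the WT mice were littermates with the floxed *c-Myc* allele and no Cre. The labels name no treatment in either genotype, and they do not say that the replicates of a genotype are separate mice, so p-values measure the spread between these samples. Total counts ranged from 30260305 to 41463647 per sample.

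Cells take up large neutral amino acids through an exchanger made of a light chain, *Slc7a5* (LAT1), and a heavy chain, *Slc3a2* (CD98), and glutamine through sodium-coupled carriers such as *Slc1a5* (ASCT2) and *Slc38a2* (SNAT2). Serine is made from a glycolytic intermediate in a short chain of reactions run by *Phgdh*, *Psat1* and *Psph*, and it then feeds glycine and the folate-bound carbon units used in nucleotide synthesis. Many of these genes are known targets of the transcription factor ATF4, which is activated when amino acids run short, and several are known to respond to MYC in growing cells. In the stomach, parietal cells secrete acid and chief cells secrete large amounts of pepsinogen.

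The rows of the 9 genes had to be put in register first. In the deposited table, names and MYC-KI counts are not in the same order. The MYC-KI counts were therefore read from the top of both columns and given to the names in character-code order, where capitals come before lower case, and the WT columns were left as they were. In windows of 61 rows around each of the 9 genes, Pearson's r between the genotypes across genes (mean log2(count + 1)) lay between -0.157 and 0.191 as deposited and between 0.961 and 0.988 after re-sorting. Genes in a window are not independent replicates, and these values only describe the match. Unless the deposited order is named, values below are from the re-sorted table.

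*Phgdh* and *Psat1*, the first and the second enzymes of serine synthesis, were upregulated more than 2-fold in *c-Myc* transgenic stomachs, and these were the only members that passed the thresholds. *Slc7a5* and *Slc1a5* had higher mean levels but differed widely between the transgenic samples and did not pass. *Asns* was at a lower mean level in the transgenic samples, and *Slc3a2*, the partner of *Slc7a5*, was at nearly the same level in both genotypes. All 9 genes passed edgeR's filter on low counts and were tested among 17643 genes with edgeR's quasi-likelihood test. To be called, a gene needed a change of over 1.5-fold (0.585 on the log2 scale) and a Benjamini-Hochberg adjusted p-value below 0.05. Of the 9 members, 2 were called higher and 0 lower, where 5.65% of all tested genes were called higher and 5.08% lower. DESeq2 called 4 members higher and 0 lower, where it called 8.23% and 9.49% of the 18257 genes with an adjusted p-value. At an unadjusted p-value under 0.05 edgeR put 4 members higher and 1 lower, against 17.7% and 16.4% of all tested genes. The median log2 fold change was 0.49 over the 9 members and 0.01 over all tested genes. In 6 members both MYC-KI samples lay above both WT samples and in 1 both lay below, against 33.3% and 31.5% of all tested genes.

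**Figure D1:**
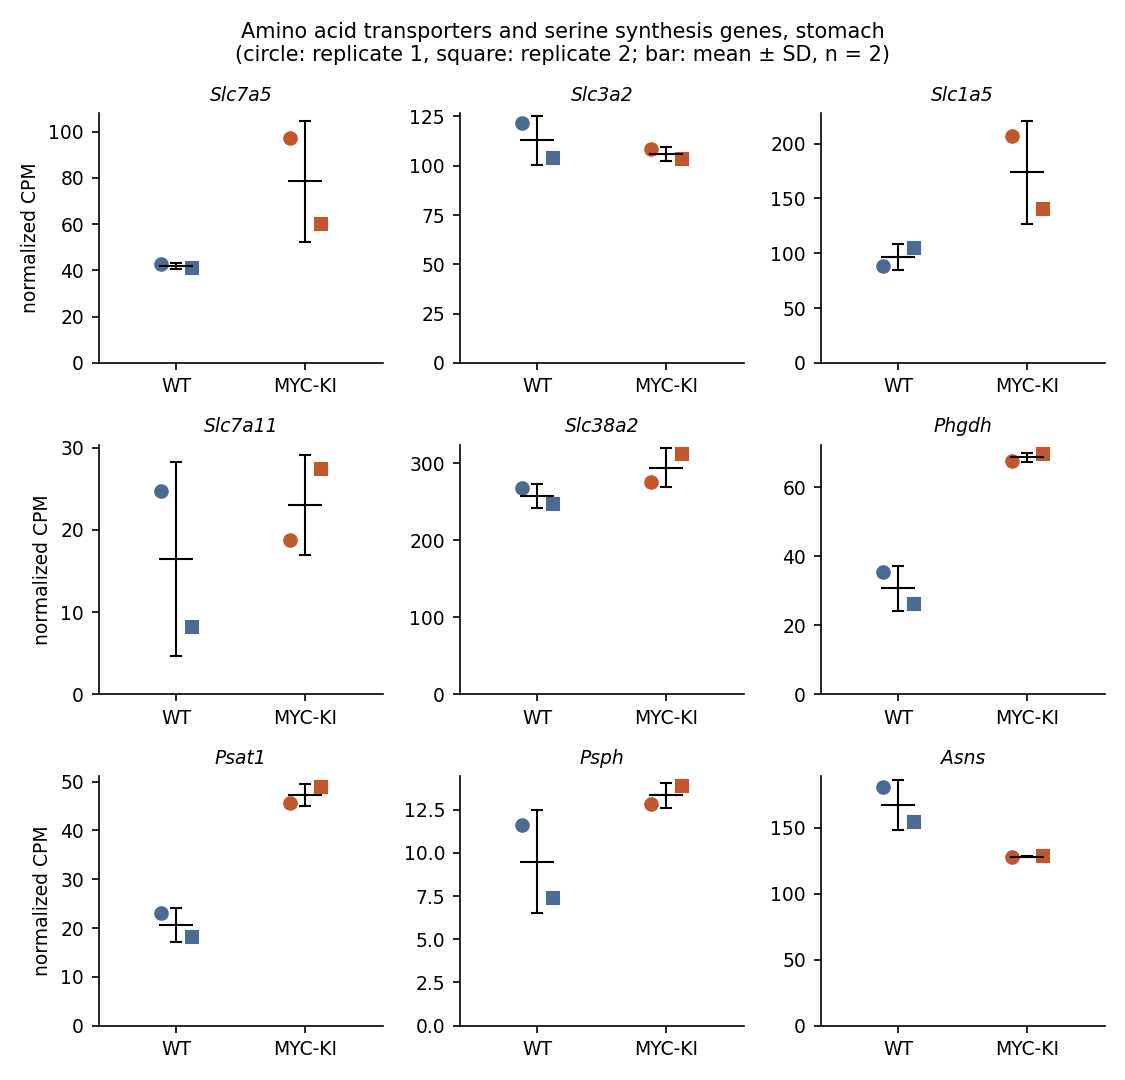
Normalized CPM (read counts scaled to a common library size, vertical axes from 0) of the 9 genes in 2 WT and 2 MYC-KI stomachs, with circles for replicate 1, squares for replicate 2 and bars for the mean and SD (n = 2). *Phgdh* and *Psat1* separate clearly with tight transgenic pairs, *Slc7a5* and *Slc1a5* separate with a wide transgenic pair, and *Slc7a11* is widest in WT, from 8.14 to 24.8.

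*Phgdh*, phosphoglycerate dehydrogenase, takes the first step of serine synthesis and lies on chromosome 3 (98313171 to 98339969, GRCm38). Its counts were 1187 and 728 in replicates 1 and 2 of WT, and 2297 and 3112 in replicates 1 and 2 of MYC-KI. Scaled to a common library size by TMM (trimmed mean of M values), these were 35.4 and 26.1 normalized CPM in WT and 67.7 and 69.7 in MYC-KI. Both transgenic samples lay well above both WT samples and close to each other. The mean rose from 30.7 ± 6.56 to 68.7 ± 1.37 (SD, n = 2 samples each), a fold of 2.23 (log2 1.16 ± 0.17 SE, edgeR adjusted p = 0.0304). The row of the pseudogene *Phgdh-ps1* had 0 counts in all 4 samples.

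*Psat1*, phosphoserine aminotransferase, takes the second step, using glutamate as the amino donor, and lies on chromosome 19 (15905123 to 15925059). Its counts were 774 and 509 in WT and 1549 and 2183 in MYC-KI, or 23.1 and 18.2 normalized CPM against 45.7 and 48.9. The groups did not overlap. The mean rose from 20.7 ± 3.41 to 47.3 ± 2.26 (SD, n = 2), a fold of 2.29 (log2 1.19 ± 0.15 SE, edgeR adjusted p = 0.0253). Within a sample the *Phgdh* row held 1.53 and 1.43 counts for each *Psat1* count in WT and 1.48 and 1.43 in MYC-KI, and these ratios overlapped between the genotypes while both levels rose.

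*Psph*, phosphoserine phosphatase, releases free serine in the last step and lies on chromosome 5 (129765558 to 129787443). It was the least counted of the 3 enzymes, at 390 and 206 counts for WT against 435 and 619 for MYC-KI. In normalized CPM the WT samples were at 11.6 and 7.38 and the MYC-KI samples at 12.8 and 13.9, without overlap but with a wide gap inside WT. The log2 fold change was 0.49 ± 0.27 (SE, edgeR adjusted p = 0.275), which passed neither threshold. It was 0.85 without WT replicate 1 and 0.20 without WT replicate 2. *Phgdh* counts per *Psph* count were 3.04 and 3.53 in WT and 5.28 and 5.03 in MYC-KI. With 2 samples against 2, an exact permutation test of such a ratio cannot give a two-sided p below 0.333, so none is given.

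The calls of *Phgdh* and *Psat1* were lost when either WT sample was left out. With WT replicate 1 left out, their log2 fold changes were 1.40 and 1.37, and with WT replicate 2 left out 0.95 and 1.03, on the same side of the fold threshold. No gene of the whole table was called in either of these fits (0 of 18333 and 0 of 18615 tested, smallest adjusted p = 0.196 and 0.232 from edgeR, with 3554 and 3410 genes at an unadjusted p-value under 0.05), which assume that the lone WT sample varies like the others. WT replicate 2 was the 1 library of 4 with many *Xist* counts (17846, against 85 to 201 in the others) and the lowest in *Ddx3y* (5 counts, against 1861 to 2623), so the values without it compare samples alike in these 2 genes.

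*Asns*, asparagine synthetase, makes asparagine from aspartate with the amide of glutamine, and lies on chromosome 6 (7675165 to 7693209). The row held 6062 and 4295 counts for WT against 4339 and 5733 for MYC-KI. After scaling, these were 181 and 154 normalized CPM in WT and 128 and 128 in MYC-KI, so both transgenic samples lay below both WT samples. On the log2 scale the change was -0.38 ± 0.11 (SE, edgeR adjusted p = 0.0870), which did not pass. With DESeq2 the adjusted p-value was 0.0256 at a log2 fold change of -0.39, still inside the fold threshold. In edgeR with library size in place of TMM the log2 fold change was -0.16. It was -0.27 without WT replicate 1 and -0.50 without WT replicate 2. *Phgdh* counts were 19.6% and 17.0% of *Asns* counts in WT and 52.9% and 54.3% in MYC-KI, with no overlap between the genotypes.

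Promoters of the members were read from RefSeq (GRCm38.p6), from 250 bases before to 50 after each start site, to show what the genes that rose and *Asns* hold upstream. The table has 8 entries for 7 of the 9 members, and *Slc7a5* and *Slc1a5* were not matched. Both strands were searched for the E-box CACGTG, the site that MYC and MAX are known to bind, and for TGATGNAA, the core of the composite site known to bind C/EBP and ATF proteins. The E-box was in 7.15% of all 32851 promoters of that table and in none of the 8 entries of the members. The composite core was in 3.97% of all promoters and in those of 2 members, *Asns* and *Slc7a11*, neither of which was called. The 250 bases before the start are given below for *Phgdh* and *Psat1*, which rose, and for *Asns* and *Slc7a11*, all on the minus strand, with GRCm38.p6 positions and written 5′ to 3′ along the gene, with capitals for the composite core on either strand.
Phgdh, chr3:98339970-98340219: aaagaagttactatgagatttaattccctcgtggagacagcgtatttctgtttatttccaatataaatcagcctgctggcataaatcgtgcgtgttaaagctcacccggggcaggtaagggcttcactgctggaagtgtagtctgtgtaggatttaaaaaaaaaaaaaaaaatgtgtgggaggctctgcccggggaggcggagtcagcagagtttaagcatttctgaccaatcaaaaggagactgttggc
Psat1, chr19:15925060-15925309: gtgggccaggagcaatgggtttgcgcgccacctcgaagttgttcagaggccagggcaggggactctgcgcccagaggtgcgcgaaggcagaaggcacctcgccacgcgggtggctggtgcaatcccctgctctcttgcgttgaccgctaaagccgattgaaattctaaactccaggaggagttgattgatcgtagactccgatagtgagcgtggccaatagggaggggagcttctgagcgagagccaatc
Asns, chr6:7693210-7693459: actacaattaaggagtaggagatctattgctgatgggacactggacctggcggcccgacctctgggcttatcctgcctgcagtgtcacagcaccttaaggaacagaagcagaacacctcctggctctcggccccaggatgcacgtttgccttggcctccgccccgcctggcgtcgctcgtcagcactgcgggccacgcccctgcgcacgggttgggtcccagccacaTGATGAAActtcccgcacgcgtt
Slc7a11, chr3:50443614-50443863: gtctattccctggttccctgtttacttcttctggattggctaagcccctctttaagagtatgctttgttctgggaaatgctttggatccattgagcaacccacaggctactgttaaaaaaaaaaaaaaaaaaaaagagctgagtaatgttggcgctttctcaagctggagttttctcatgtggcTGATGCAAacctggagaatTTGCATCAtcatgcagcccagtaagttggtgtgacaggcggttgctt

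The table's start for *Slc7a11* lies inside the RefSeq span given below for this gene. In *Asns* the core stood 23 to 16 bases before the start. In *Slc7a11* 1 copy stood on the gene's strand, 66 to 59 bases before the start, and a second on the other strand, 47 to 40 bases before it, and the copies did not overlap. The windows of *Phgdh* and of both *Psat1* entries held neither motif. These matches describe letters in a short window, and a match or its absence says nothing about binding in these samples.

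*Slc7a5*, the light chain of the leucine and large neutral amino acid exchanger, lies on chromosome 8 (121881146 to 121907686). Counts of 1438 and 1147 were recorded for WT, against 3293 and 2677 for MYC-KI. In normalized CPM, WT was at 42.8 and 41.1, and MYC-KI replicate 1 was at 97.1 while replicate 2 was at 59.9. Both transgenic samples lay above WT, but they differed 1.62-fold from each other. Its log2 fold change was 0.90 ± 0.25 (SE, edgeR adjusted p = 0.0854), past the fold threshold and not the adjusted p. Without MYC-KI replicate 2 it was 1.21 (adjusted p = 0.0123 from edgeR), which passed, and without MYC-KI replicate 1 it was 0.51.

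*Slc1a5*, a sodium-coupled carrier of glutamine, serine and alanine, lies on chromosome 7 (16781334 to 16798274) and showed the same spread. Its counts were 2960 and 2926 in WT and 7026 and 6287 in MYC-KI. The normalized CPM were 88.2 and 104.9 in WT, 207 in MYC-KI replicate 1 and 141 in MYC-KI replicate 2. Again the groups did not overlap and the transgenic samples were far apart, 1.47-fold. As a log2 fold change the difference was 0.85 ± 0.22 (SE, edgeR adjusted p = 0.0765). Without MYC-KI replicate 2 it was 1.10 (adjusted p = 0.0216 from edgeR), and without replicate 1 it was 0.55. DESeq2 called both genes, with adjusted p-values of 0.00678 for *Slc7a5* and 0.00384 for *Slc1a5*, as did edgeR without a filter on low counts and edgeR with library size in place of TMM.

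*Slc3a2*, the heavy chain that carries *Slc7a5* and other light chains to the cell surface, lies on chromosome 19 (8706882 to 8723369). Counts were 4085 and 2905 for WT against 3686 and 4619 for MYC-KI, or 122 and 104 against 109 and 103 normalized CPM, and the groups overlapped. The difference came to a log2 fold change of -0.09 ± 0.11 (SE, edgeR adjusted p = 0.602), and with library size in place of TMM its sign changed, to 0.13. *Slc7a5* counts were 35.2% and 39.5% of *Slc3a2* counts in WT, and 89.3% and 58.0% in MYC-KI replicates 1 and 2. This ratio was higher in both transgenic samples, and it does not depend on how libraries are scaled.

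*Slc38a2*, a sodium-coupled carrier of small neutral amino acids such as glutamine and alanine, lies on chromosome 15 (96687392 to 96699728) and was the most counted member. WT held 9003 and 6877 counts and MYC-KI 9367 and 13967. In normalized CPM it was at 268 and 247 in WT and at 276 and 313 in MYC-KI, where the lower transgenic sample lay just above the higher WT sample. The log2 fold change was 0.19 ± 0.11 (SE, edgeR adjusted p = 0.274).

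*Slc7a11*, the light chain of the cystine and glutamate antiporter, lies on chromosome 3 (50364936 to 50499087 in RefSeq) and varied most inside a genotype. WT held 832 and 227 counts and MYC-KI 635 and 1222, or 24.8 and 8.14 against 18.7 and 27.4 normalized CPM. The groups overlapped, and WT replicate 2 alone was low, 3.05-fold below WT replicate 1. On the log2 scale the change was 0.48 ± 0.57 (SE, edgeR adjusted p = 0.601). It was 1.501 without WT replicate 1 and -0.11 without WT replicate 2, so its sign turned on 1 WT sample.

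**Figure D2:**
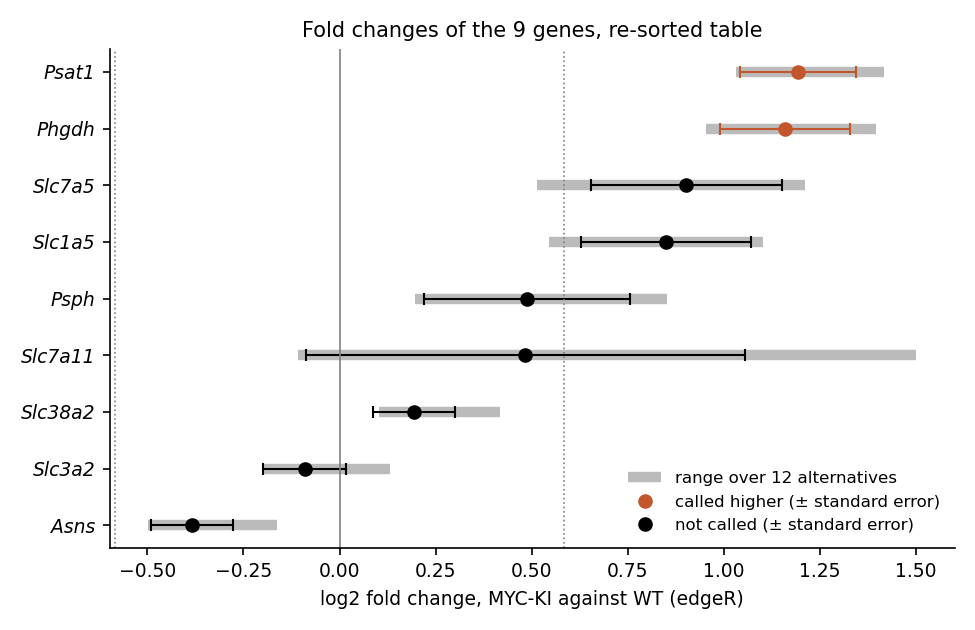
Log2 fold change of each member, MYC-KI against WT (horizontal axis; points with standard errors from edgeR), with grey bars for the range over 12 alternatives on the re-sorted table and dotted lines at the fold threshold of 0.585 in either direction. Only *Phgdh* and *Psat1* are called, their bars stay above the threshold, and the bar of *Slc7a11* crosses 0, from -0.11 to 1.501.

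Levels of different genes were compared per kilobase of exon (all exons of a gene in GENCODE vM21 merged), since longer transcripts collect more reads. In WT the highest was *Asns* with 61.2 ± 6.90 CPM per kilobase (SD, n = 2), followed by *Slc3a2* (32.0 ± 3.53), *Slc38a2* (29.1 ± 1.74) and *Slc1a5* (23.1 ± 2.83). Then came *Phgdh* (12.4 ± 2.64), *Slc7a5* (11.3 ± 0.331), *Psat1* (4.86 ± 0.801), *Psph* (2.20 ± 0.692) and *Slc7a11* (1.18 ± 0.846). The neighbours *Slc3a2* and *Slc38a2*, *Phgdh* and *Slc7a5*, and *Psph* and *Slc7a11* did not differ beyond 1 SD on each side. In MYC-KI, *Asns* was at 46.8 ± 0.107 and *Slc1a5* at 41.7 ± 11.3, and these overlapped. *Phgdh*, at 27.6 ± 0.553, had come close to *Slc3a2* at 30.05 ± 1.06 and *Slc38a2* at 33.3 ± 2.92. *Slc7a5* was at 21.2 ± 7.09, *Psat1* at 11.1 ± 0.532, *Psph* at 3.08 ± 0.169 and *Slc7a11* at 1.65 ± 0.439. The authors' annotation is not given in the sources used here, so the lengths may differ from those their reads were counted on, most of all for *Slc7a11*, whose merged exons come to 13.9 kilobases.

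The genes around these reactions were taken from 5 lists with the members left out, 102 genes in all, of which 99 were tested. Of these, 7 (7.07%) were called higher and 12 (12.1%) lower in *Atp4b-cre;MycOE* mice, against 5.65% and 5.08% of all tested genes. With library size in place of TMM the numbers were 12 higher and 8 lower, against 12.9% and 4.19% of all tested genes under that scaling. It put the median over all 17643 genes at 0.23, against 0.01 with TMM. Over the 99 genes the median log2 fold change was -0.00078 with TMM. Each called gene named below kept its sign under all 12 alternatives on the re-sorted table, and none of them was called when either WT sample was left out.

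Enzymes that use serine or pass on its carbon had the 3 highest log2 fold changes of the 99 genes. *Shmt1* and *Shmt2*, the cytosolic and mitochondrial hydroxymethyltransferases that turn serine into glycine, both rose. *Shmt1* was at 25.3 and 22.7 normalized CPM in WT and 75.6 and 67.3 in MYC-KI, or 1.57 ± 0.11 (SE) as log2 fold change (edgeR adjusted p = 0.0152). *Shmt2* was at 36.9 and 31.8 in WT and 90.7 and 87.2 in MYC-KI, or 1.37 ± 0.11 (SE) as log2 fold change (edgeR adjusted p = 0.0168). *Mthfd1l*, which releases formate from the folate carrier in mitochondria, was at 11.5 and 9.64 in WT and 36.5 and 32.1 in MYC-KI, or 1.70 ± 0.16 (SE) as log2 fold change (edgeR adjusted p = 0.0188). In all 3 genes the groups lay far apart and replicates close together. *Shmt1* was also called when the replicate number was used as a block, and *Shmt2* and *Mthfd1l* were not.

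Of the 16 tested genes of serine use, glycine and folate carbon units, 3 were called higher and 4 lower, with a median log2 fold change of 0.06. DESeq2 called 3 higher and 5 lower, *Gldc* of the glycine cleavage system besides (DESeq2 log2 fold change -0.86, named after its values were seen), and at an unadjusted p-value under 0.05 edgeR put 4 higher and 5 lower. Those edgeR called lower were *Aldh1l1* (log2 fold change -1.78) and *Aldh1l2* (-0.94), the cytosolic and mitochondrial enzymes that oxidize formyl-folate, serine racemase *Srr* (-0.82) and *Cbs* (-1.31), which joins serine to homocysteine. *Aldh1l1* was at 118 and 112 normalized CPM in WT and at 38.3 and 28.8 in MYC-KI. *Mthfd2*, the mitochondrial folate dehydrogenase, was at 34.7 and 31.5 in WT and at 51.3 and 38.8 in MYC-KI, a log2 fold change of 0.44 that did not pass (edgeR adjusted p = 0.149). *Srr* was not called with library size in place of TMM, nor without MYC-KI replicate 2 (log2 fold change between -0.95 and -0.60 over the alternatives), and *Aldh1l2* was not called without MYC-KI replicate 1 (between -1.04 and -0.72).

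**Figure D3:**
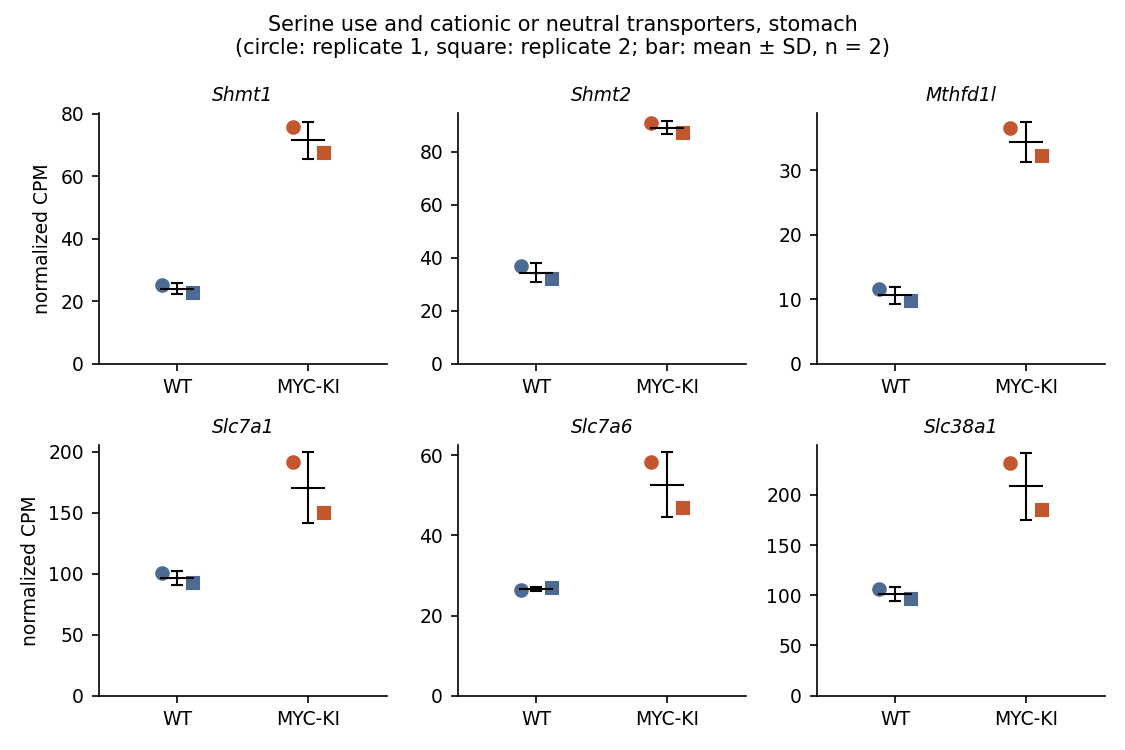
Normalized CPM (vertical axes from 0) of 3 genes of serine use and 3 transporters that were called higher, in 2 WT and 2 MYC-KI stomachs, with circles for replicate 1, squares for replicate 2 and bars for the mean and SD (n = 2). In all 6 genes both MYC-KI samples lie above both WT samples and replicate 1 of MYC-KI is the highest, with a wider gap to replicate 2 in *Slc7a1*, *Slc7a6* and *Slc38a1*.

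Of 29 other amino acid transporters tested, 3 were called higher and 2 lower, and the median log2 fold change was -0.07. DESeq2 called 3 higher and 6 lower, the 4 others lower being *Slc7a10*, *Slc1a3*, *Slc38a3* and *Slc38a5* (DESeq2 log2 fold changes from -4.09 to -0.75, named after their values were seen), and at an unadjusted p-value under 0.05 edgeR put 4 higher and 6 lower. The cationic carrier *Slc7a1*, which brings in arginine and lysine, was at 100.2 and 92.4 normalized CPM in WT and at 191 and 149.8 in MYC-KI (log2 fold change 0.82 ± 0.15 SE, edgeR adjusted p = 0.0396). *Slc7a6*, another light chain that pairs with *Slc3a2*, was at 26.3 and 26.9 in WT and at 58.3 and 46.9 in MYC-KI (0.99 ± 0.14 SE, edgeR adjusted p = 0.0287). *Slc38a1*, a glutamine carrier related to *Slc38a2*, was at 106 and 96.3 in WT and at 232 and 185 in MYC-KI (1.04 ± 0.14 SE, edgeR adjusted p = 0.0287). In each of the 3 the transgenic samples lay above WT, and MYC-KI replicate 1 was the higher, as it was for *Slc7a5* and *Slc1a5*.

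*Slc7a8* (LAT2), a further light chain of *Slc3a2*, fell from 80.6 and 85.6 normalized CPM in WT to 21.4 and 13.5 in MYC-KI, or -2.25 ± 0.25 (SE) as log2 fold change (edgeR adjusted p = 0.0213). Among *Slc7a5*, *Slc7a6*, *Slc7a8* and *Slc7a11*, the light chains of *Slc3a2* whose levels are given here, edgeR called *Slc7a6* higher and *Slc7a8* lower. *Slc7a5* and *Slc7a11*, like *Slc3a2* itself, were not called. The glutamate carrier *Slc1a2* was lower, at 14.0 and 11.3 in WT and 6.63 and 5.71 in MYC-KI (log2 fold change -1.04, edgeR adjusted p = 0.0493), and this call was lost with library size in place of TMM and without either MYC-KI sample (log2 fold change between -1.19 and -0.81 over the alternatives). *Slc3a1* and *Slc7a9*, which form the cystine and dibasic amino acid carrier of the small intestine and kidney, and *Slc6a19*, the neutral carrier of the intestinal brush border, were high in replicate 1 and low in replicate 2 of both genotypes. *Slc6a19* was at 37.9 and 12.7 in WT and at 45.2 and 9.11 in MYC-KI, and its log2 fold change was 0.10 (standard error 0.91). The summed level of 6 small intestinal genes (*Fabp2*, *Sis*, *Apoa1*, *Apoa4*, *Alpi* and *Vil1*, chosen after these values were seen) was 2455 and 1627 CPM in WT and 1830 and 318 in MYC-KI, in the same order inside each genotype. Its part in these values was not tested.

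Of 16 genes of glutamine, glutamate and proline metabolism, 1 was called higher and 3 lower, with a median log2 fold change of -0.02. DESeq2 called 2 higher and 4 lower, *Gls2* and *Glul* being added, and at an unadjusted p-value under 0.05 edgeR put 5 higher and 4 lower. *Gls2*, the liver-type glutaminase, was at 2.50 and 4.23 normalized CPM in WT and at 6.78 and 7.39 in MYC-KI (log2 fold change 1.08, edgeR adjusted p = 0.106). *Aldh18a1*, the first enzyme of proline synthesis, was called higher, at 76.6 and 62.0 in WT and 126 and 108 in MYC-KI (0.76, adjusted p = 0.0472 from edgeR), and this call was lost without MYC-KI replicate 1 (log2 fold change between 0.61 and 0.98 over the alternatives).

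The 3 genes that edgeR called lower there were transaminases that pass amino groups between glutamate and other acids. *Gpt2* fell from 256 and 256 normalized CPM in WT to 65.6 and 88.0 in MYC-KI (log2 fold change -1.74 ± 0.16 SE, edgeR adjusted p = 0.0193). *Gpt* was at 132 and 109 in WT and at 47.2 and 44.1 in MYC-KI (-1.40 ± 0.12 SE, edgeR adjusted p = 0.0183). *Got1* was at 119 and 109 in WT and at 78.6 and 69.6 in MYC-KI (-0.62), and it was not called with library size in place of TMM, nor without MYC-KI replicate 2. Glutamine synthetase *Glul* was at 865 and 921 CPM in WT and at 547 and 648 in MYC-KI and did not pass (-0.58, adjusted p = 0.0528 from edgeR).

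Among 17 tested genes of the ATF4 and amino acid response, 0 were called higher and 2 lower, and the median log2 fold change was 0.04, with 9 genes above 0 and 8 below. DESeq2 called 1 higher and 2 lower, and at an unadjusted p-value under 0.05 edgeR put 1 higher and 3 lower. The 1 higher gene in both counts, named after its values were seen, was the secreted glycoprotein *Stc2*, at 22.0 and 15.8 normalized CPM in WT and at 39.5 and 28.7 in MYC-KI (log2 fold change 0.85 ± 0.25 SE, edgeR adjusted p = 0.0920). *Atf4* itself, the transcription factor of this response, was at 164 and 157 normalized CPM in WT and at 180 and 152 in MYC-KI, so the groups overlapped (log2 fold change 0.05, edgeR adjusted p = 0.813). *Trib3*, a known ATF4 target, was at 5.63 and 2.26 in WT and at 3.27 and 3.25 in MYC-KI, and *Ddit3* was at 12.9 and 10.4 against 6.96 and 8.57, without passing (-0.58, edgeR adjusted p = 0.144). Called lower were *Chac1*, which breaks down glutathione (log2 fold change -1.31), and the lipoprotein receptor *Vldlr* (-1.10). *Chac1* was not called without MYC-KI replicate 1 (between -1.57 and -1.09 over the alternatives). Among 21 genes of amino acid sensing by mTORC1, 0 were called higher and 1 lower, *Fnip2* (-0.76), a partner of folliculin, which was not called with library size in place of TMM. For these 21 genes DESeq2 called 1 higher and 2 lower, and at an unadjusted p-value under 0.05 edgeR put 1 higher and 4 lower, and the median log2 fold change was -0.00078. *Rragd*, a Rag GTPase, was the 1 higher gene in both counts (0.67, edgeR adjusted p = 0.0877), and *Sesn3*, a sestrin, was the other gene DESeq2 called lower (-0.76, edgeR adjusted p = 0.0946), both named after their values were seen. The leucine sensor *Sesn2*, listed with the ATF4 genes, was at 11.0 and 11.8 in WT and at 12.4 and 13.9 in MYC-KI (0.21, adjusted p = 0.410 from edgeR).

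**Figure D4:**
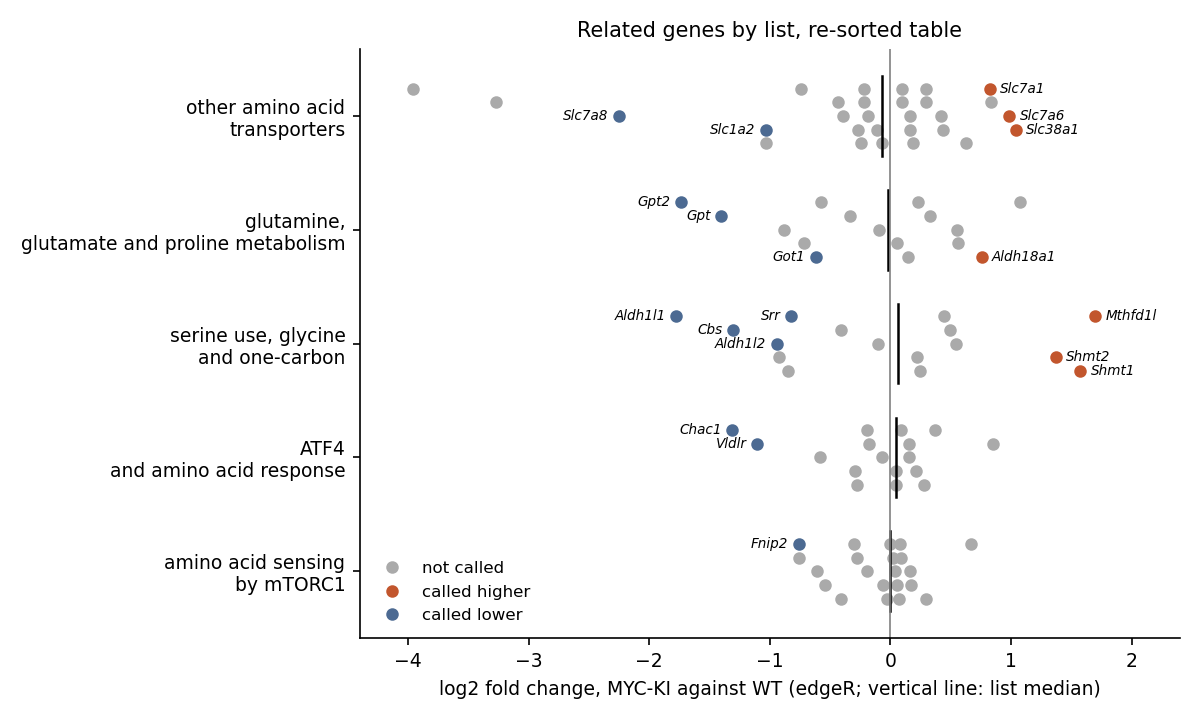
Log2 fold change, MYC-KI against WT (horizontal axis), of 99 tested genes in 5 lists, with orange points for genes called higher, blue for genes called lower, grey for genes not called and a vertical line for each list's median. The medians lie between -0.07 and 0.06, and *Shmt1*, *Shmt2* and *Mthfd1l* stand furthest to the right.

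Summed RNA of cell type markers differed between the genotypes, and in bulk RNA fewer cells of a type and less RNA per cell cannot be told apart. The parietal markers fell from 12457 and 12690 summed CPM in WT to 1667 and 1621 in MYC-KI, with 7 of 8 called lower, and the chief cell markers from 84853 and 80511 to 1198 and 1518, with 4 of 5 tested called lower. *Car2*, the parietal marker not called, made up 1398 and 1300 of the parietal CPM in MYC-KI. *Pgc* made up most of the chief cell sum, at 80998 and 76704.5 in WT and 1043 and 1426 in MYC-KI. The surface mucous markers were also lower, 4 of 4, and the markers of parietal and chief cells were abundant in WT, which fits the labelled tissue. The 4 cycling markers, *Mki67*, *Top2a*, *Ccnb1* and *Cdk1*, summed to 263 and 254 in WT and to 402 and 344 in MYC-KI, and 1 of 4 was called higher. Of 13 pancreatic acinar markers, 4 were at or under 3 counts in every sample, among them *Cpa1*, *Prss2* and *Amy2a5* at 0, and the summed level was 268 and 227 in WT and 131 and 154 in MYC-KI, nearly all of it *Cela1*. The part of these shifts in the members' values was not tested.

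Some markers moved with the spread inside a genotype. The mucous neck markers *Muc6*, *Tff2* and *Aqp5* summed to 9971 and 12320 CPM in WT and to 19938 in MYC-KI replicate 1 against 8784 in replicate 2, in the order of *Slc7a5* and *Slc1a5* inside MYC-KI. In WT their order was that of *Slc1a5* and not of *Slc7a5*. The cycling and small intestinal sums were also higher in MYC-KI replicate 1, and the chief cell and surface mucous sums were lower there. With 2 samples a list can only have this order or its reverse. The 6 squamous markers of the forestomach summed to 1247 and 744 in WT and to 552 and 2474 in MYC-KI, in the order of *Slc7a11* inside each genotype. The 4 smooth muscle markers summed to 6323 and 4039 against 2024 and 4405, in the same order inside each genotype. The 8 leukocyte markers summed to 188 and 194 in WT and to 82.7 and 80.9 in MYC-KI. Most of that difference was *Lyz2*, at a mean of 139 CPM in WT and 46.1 in MYC-KI, and *Adgre1*, at 20.0 and 4.14, the 2 of 8 called lower. *Ptprc*, common to leukocytes, was at 18.1 and 17.6, and the list's median log2 fold change was -0.10. Their part in the members' values was not tested.

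**Figure D5:**
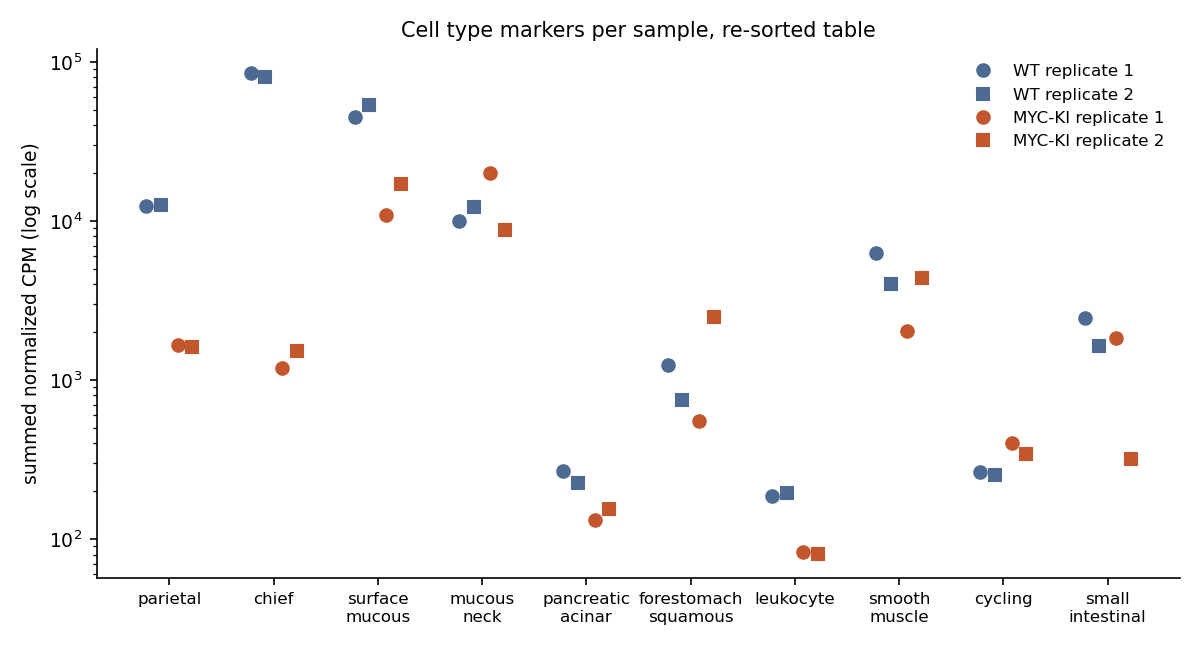
Summed normalized CPM (log scale) of each marker list in the 4 samples, blue for WT and orange for MYC-KI, circles for replicate 1 and squares for replicate 2. Parietal and chief cell markers separate the genotypes most, and the squamous, smooth muscle, mucous neck and small intestinal markers differ between the MYC-KI replicates.

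The check of the targeted gene is limited, since no row stands for human *c-Myc*. For mouse *Myc* the row held 1062 and 759 counts in WT against 735 and 1091 in MYC-KI, or -0.35 ± 0.14 (SE) as log2 fold change (edgeR adjusted p = 0.163).

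In the deposited row order the members read differently. There 4 were called higher and 5 lower, where 42.7% and 41.5% of all tested genes were called higher and lower. *Phgdh* stood beside transgenic counts of 23 and 4, which re-sorting gives to *Podnl1*, and *Slc38a2* beside 6 and 18, which belong to the small nucleolar RNA *Snord17*. *Slc3a2* stood beside 0 and 1 (*Snord52*), *Slc7a5* beside 2719 and 3743 (*Snx27*), *Psat1* beside 3496 and 4321 (*Ralb*) and *Asns* beside 871 and 1503 (*Asap1*). For none of the 9 genes do the 2 orders share a row, so every MYC-KI value and every comparison given for a member depends on the re-sorting.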

How the data were processed

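Stomach RNA was measured in 2 WT and 2 *Atp4b-cre;MycOE* samples. The authors deposited raw read counts per gene symbol, not normalized, with HISAT2 and mm10 named in the submitters' processing notes and the counting tool and annotation not given in the sources used here. All 46095 rows have a name. MYC-KI counts were re-sorted as the report describes, and the members and lists were chosen with earlier results of these data known. Replicates differed by more than counting noise (chi-square per degree of freedom 28.9 in WT and 97.9 in MYC-KI).

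From these counts each gene was fitted in edgeR 4.0.16 (R 4.3.3; TMM scaling, filterByExpr, glmQLFit, glmQLFTest, no covariate, Benjamini-Hochberg over all tested genes). The standard error is the absolute log2 fold change over the square root of F. Alternatives were the deposited order, DESeq2 1.42.0, other scalings and filters, the replicate number as a block, other fold thresholds, and leaving out each sample. All members and all called list genes are named, and 1 uncalled list gene is not reported here. The test was checked on simulated counts. A count of 0 allows up to 3 counts, for counting error only. Castor1 and Castor2 were matched as *Gatsl3* and *Gatsl2*, and Cblif as *Gif*, through RefSeq synonyms.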

Additional observations from a re-analysis of the deposited data

How the results depend on the processing

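Over 12 alternatives on the re-sorted table, 91 of 108 fold changes of members kept their direction and their call (called or not called). Some of these crossed a threshold without a change of call, such as *Slc7a5* without MYC-KI replicate 1 (log2 fold change 0.51). The alternatives that change only the fold threshold keep the same fit, so there the direction could not change. Members called higher were 2 in the re-sorted table, 4 with DESeq2, with library size and with no filter on low counts, 0 with the replicate number as a block (a paired fit) and 0 to 4 when each sample was left out. Of all tested genes, edgeR with no filter called 4.96% higher and 4.83% lower, and with the block 0.153% higher and 0.493% lower, so few genes of any kind were called there. Under the block the adjusted p-values of *Phgdh* and *Psat1* were 0.0640 and 0.0630 from edgeR. Same-numbered samples did not deviate together (correlation 0.062 across 13509 genes), so the numbers were not taken to pair the samples. The sign changed for *Slc3a2* with library size (0.13) and without WT replicate 1, with log2 fold changes of -0.202 to 0.025 over the 4 fits that leave out a sample, and for *Slc7a11* without WT replicate 2, with -0.11 to 1.501 over those fits. In the deposited order 4 members were called higher and 5 lower, and the sign changed for *Phgdh* (-6.33), *Slc1a5* (-1.98) and *Slc38a2* (-9.66), because other rows' counts stand there. Related genes called higher, 7 in the re-sorted table, were 19 as deposited, 12 with library size, 4 with an absolute log2 fold change above 1, 1 with the block and 0 to 12 when a sample was left out. Those called lower, 12 in the re-sorted table, were 65 as deposited, 19 with DESeq2, 1 with the block and 0 to 14 when a sample was left out. The shares of all tested genes called higher and lower were 2.63% and 3.68% above an absolute log2 fold change of 1, 4.2% and 4.48% without MYC-KI replicate 1, 5.82% and 7.69% without MYC-KI replicate 2, and 0 without either WT sample. Apart from the deposited order, the cause of these shifts was not tested. Replicates differed by more than counting noise, and other read depths were not tried.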
